A study of Mus musculus with 2 samples.

Results

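Peaks that carried 6 or more footprints in both of 2 mouse kidney libraries are described here. A peak is a stretch of accessible chromatin, and a footprint is a short stretch inside it that DNase I cut less than its surroundings. DNase-seq was done on whole kidney of 2 male mice aged 25 days, of the strain B6CASTF1/J, a first-generation cross between CAST/EiJ and C57BL/6J. The mice form 1 group, with no treated or control animals, and the labels give both the same donor code but separate biosamples and animal numbers. Replicate 1 had 125393 peaks and 237471 footprints, and replicate 2 had 177001 peaks and 493495 footprints. Members were the replicate 1 peaks overlapped by 6 or more footprints of that library that also overlapped a replicate 2 peak with 6 or more of its own. There were 1603 of them, or 1.28% of the replicate 1 peaks, and they matched 1616 peaks of replicate 2, or 0.913% of its peaks. They held 4.76% of the footprints of replicate 1 and 2.38% of those of replicate 2. Pairs of values refer to replicate 1 and then replicate 2. With n = 2 animals in 1 group no test between animals existed, and the intervals given cover counting error over peaks only.

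Transcription factors and the transcription machinery bind accessible DNA and shield it from the enzyme, so a footprint can mark a bound protein, although the sequence preference of DNase I also shapes cut patterns. Promoters, the DNA around transcription start sites (TSSs), are the most accessible elements of many genes. In mammals many of them lie in CpG islands, stretches that keep a high content of CpG dinucleotides and often hold GC boxes, the sites of SP and KLF factors. Distal elements such as enhancers and sites of the insulator protein CTCF are accessible as well, and tissue-specific factors bind mainly there.

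Here 6 or more footprints in a peak of at most 300 bp can be seen letter by letter. The sequences below are the 6 members with the most footprints among those that are at most 300 bp wide, hold no annotated UTR base, followed by 2 comparison peaks of the height nearest to the first 2 that had 1 footprint in replicate 1. All are the plus strand of GRCm38.p6 (mm10), 5′ to 3′, and capitals mark the bases inside replicate 1 footprints.
4932412D23Rik: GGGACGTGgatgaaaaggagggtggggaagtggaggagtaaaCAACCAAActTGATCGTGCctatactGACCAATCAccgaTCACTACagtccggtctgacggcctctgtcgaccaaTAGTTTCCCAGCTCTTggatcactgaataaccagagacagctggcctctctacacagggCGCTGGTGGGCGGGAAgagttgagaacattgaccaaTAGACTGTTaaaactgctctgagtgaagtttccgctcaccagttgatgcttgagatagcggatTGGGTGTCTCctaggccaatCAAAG
Ptpn12: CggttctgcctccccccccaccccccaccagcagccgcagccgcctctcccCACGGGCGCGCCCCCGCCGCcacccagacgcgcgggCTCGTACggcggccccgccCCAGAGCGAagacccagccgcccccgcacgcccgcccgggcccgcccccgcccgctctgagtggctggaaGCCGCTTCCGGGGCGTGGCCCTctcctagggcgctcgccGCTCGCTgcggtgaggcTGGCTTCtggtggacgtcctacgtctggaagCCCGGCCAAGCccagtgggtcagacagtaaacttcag
Utp3: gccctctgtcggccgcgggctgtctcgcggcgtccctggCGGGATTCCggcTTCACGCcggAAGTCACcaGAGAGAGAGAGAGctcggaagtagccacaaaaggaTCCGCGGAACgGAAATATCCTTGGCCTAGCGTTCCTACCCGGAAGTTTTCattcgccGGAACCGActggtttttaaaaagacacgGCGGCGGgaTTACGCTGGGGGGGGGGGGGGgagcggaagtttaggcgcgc
Cdk5r1: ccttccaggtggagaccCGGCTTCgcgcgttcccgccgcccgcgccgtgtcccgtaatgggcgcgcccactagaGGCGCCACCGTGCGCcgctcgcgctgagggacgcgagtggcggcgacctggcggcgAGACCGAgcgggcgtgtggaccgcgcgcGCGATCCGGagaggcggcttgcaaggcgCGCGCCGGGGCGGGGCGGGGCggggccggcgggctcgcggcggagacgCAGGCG
Gdf15: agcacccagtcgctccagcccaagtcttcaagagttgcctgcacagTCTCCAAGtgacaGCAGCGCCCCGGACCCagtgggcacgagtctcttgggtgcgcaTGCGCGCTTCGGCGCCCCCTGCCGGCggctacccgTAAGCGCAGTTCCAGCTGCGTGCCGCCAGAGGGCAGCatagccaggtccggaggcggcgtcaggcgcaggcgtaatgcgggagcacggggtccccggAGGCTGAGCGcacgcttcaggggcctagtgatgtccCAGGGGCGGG
Gm37323: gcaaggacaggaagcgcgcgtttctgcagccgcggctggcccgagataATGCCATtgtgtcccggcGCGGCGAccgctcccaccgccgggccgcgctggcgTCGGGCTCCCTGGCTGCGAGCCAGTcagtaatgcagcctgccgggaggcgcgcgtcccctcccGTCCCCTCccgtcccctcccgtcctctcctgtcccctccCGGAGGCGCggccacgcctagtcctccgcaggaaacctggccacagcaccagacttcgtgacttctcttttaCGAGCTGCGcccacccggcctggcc
Hint2: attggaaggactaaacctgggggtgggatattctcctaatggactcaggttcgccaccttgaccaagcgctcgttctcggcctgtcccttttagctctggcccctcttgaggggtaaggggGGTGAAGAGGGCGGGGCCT
Dnajc13: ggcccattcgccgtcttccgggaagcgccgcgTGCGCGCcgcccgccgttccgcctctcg

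The first of these lies at chr16:42875361-42875660, with its midpoint 76 bp from a TSS of 4932412D23Rik, a long noncoding RNA gene. It had 10 and 20 footprints, and its capitals cover 97 of 300 bases. The 20 were counted over the matching replicate 2 peak, which is 880 bp wide and runs past the printed sequence on both sides. For each sequence the second number belongs to the matching replicate 2 peak, whose extent can differ. Its GC content was 51.0%, and it held 2 CCAAT boxes and 1 GC box. Ptpn12 (a protein tyrosine phosphatase) at chr5:21056041-21056340 had 8 and 12 footprints and 5 GC boxes, in sequence with a GC content of 76.0% and 35 CpGs. Utp3 (a factor of ribosomal RNA processing) at chr5:88554181-88554420 had 9 and 10 footprints, no GC box and 2 matches to the ETS letters. Cdk5r1 (the p35 activator of the kinase Cdk5) at chr11:80476761-80477000 had 6 and 13 footprints, 4 GC boxes and 48 CpGs.

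The other 2 members shown are not promoters. The peak at chr8:70629781-70630060 lies in the last coding exon of Gdf15, a stress-induced cytokine, 2174 bp from its TSS, and had 6 and 12 footprints. It held 2 matches to the NRF1 letters, which overlap on opposite strands of 1 site, and 1 to the CTCF letters. The peak at chr1:4571741-4572040 is intergenic, 14361 bp from the noncoding gene Gm37323, and had 6 and 12 footprints and 34 CpGs but no GC box. The comparison peaks are shorter. Hint2 (a nucleotide hydrolase) at chr4:43656621-43656760 is 140 bp wide, and 19 of its bases lie in its 1 footprint, which includes a GC box. Its height was 8.88 in replicate 1 against 9.64 for the 4932412D23Rik peak. Dnajc13 (an endosomal DnaJ protein) at chr9:104263041-104263100 is 60 bp wide, with 7 bases in its footprint at a height of 19.5 against 16.1 for Ptpn12. Both comparison peaks had more footprints in replicate 2, namely 4 and 5.

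Peaks with 6 or more footprints were 2.68% of all peaks in replicate 1 (3360 peaks) and 4.28% in replicate 2 (7582 peaks), so the rule kept 47.7% and 21.3% of them. Of the 3360, 3352 overlapped a replicate 2 peak, and 1749 failed only because that peak had fewer than 6. These 1749 had a median of 4 footprints in replicate 2 and a median height of 8.77, and 72.0% were promoter peaks. Members had a median of 7 footprints in each library, ranging from 6 to 17 and from 6 to 20. Over all 109888 shared pairs, Spearman's rho between the footprint numbers of the 2 animals was 0.490, given as a description because all points come from the same 2 libraries. At the threshold, 758 members had exactly 6 footprints in replicate 1, with a median height of 9.58, a width of 240 bp and 81.8% at promoters. Just outside it, 1101 peaks had 5 in replicate 1 and 6 or more in replicate 2, with 8.01, 240 bp and 78.1%, and 481 had 6 and 5, with 9.95, 220 bp and 80.5%. In replicate 2, 637 members had exactly 6 footprints, with a median height of 10.15 and 84.9% at promoters, against 7.24 and 76.2% for the 617 peaks with 6 there and 5 in replicate 1.

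The 10 members with the most footprints over both libraries were all promoter peaks. After 4932412D23Rik came Abtb1 (an ankyrin and BTB domain protein) at chr6:88841881-88842540, with 16 and 11 footprints over 660 bp. Gtdc1 at chr2:44926861-44927460 had 15 and 12, and Nadk (NAD kinase, which makes NADP) at chr4:155563301-155563860 had 13 and 13. Gsk3b, a kinase of Wnt signalling and glycogen metabolism, held the most in replicate 1, with 17 at chr16:38088741-38089520, but 8 in replicate 2, where the matching peak is 380 bp wide in place of 780 bp. Fbxo11 (a subunit of a ubiquitin ligase) had 11 and 14, Srek1ip1 14 and 11, Wipi1 (an autophagy protein) 12 and 12, Map3k14 (the kinase NIK) 12 and 12 and 1810013L24Rik 11 and 13. Their heights spanned 3.59 (Srek1ip1) to 27.0 (Map3k14) in replicate 1 and 3.502 (Srek1ip1) to 31.5 (Wipi1) in replicate 2, so the most footprints did not need the highest peaks.

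**Figure D1:**
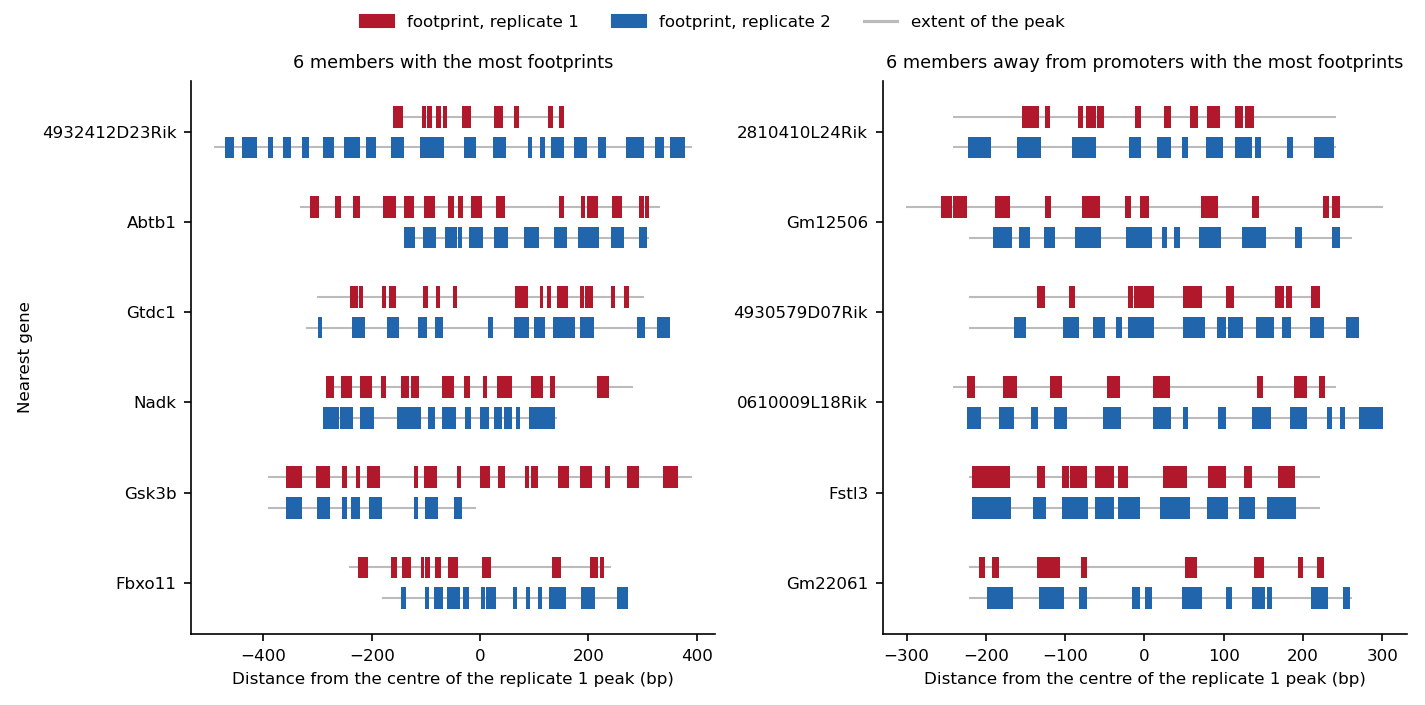
Footprints (bars, red for replicate 1 and blue for replicate 2) along the extent of the peak in each library (grey lines), by distance in bp from the centre of the replicate 1 peak, for the 6 members with the most footprints and the 6 with the most away from promoters, labelled by nearest gene. Where peaks of a member differ in extent, as at Gsk3b (17 and 8 footprints) and 4932412D23Rik (10 and 20), footprints of the longer peak lie past the end of the shorter one.

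Members were compared with peaks of like height that had fewer footprints: shared peaks with 1 to 5 footprints in their own library and no more than 5 in any overlapping peak of the other, weighted to the members over 10 classes of height. Height is the value the authors deposited for each peak. In whole tissue it cannot tell more cells with an open site from a more open site in each cell. The members' median height was 10.96 (range 0.650 to 35.1) and 9.93 (0.541 to 40.9). The comparison peaks had 10.97 and 9.94 after weighting, while all peaks had 0.872 and 0.691. Members were thus high peaks, and the weighting brought the medians together, though heights can still differ within a class.

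Members were wider. Their median width was 280 bp (range 140 to 860) against 180 bp for the comparison peaks in replicate 1, and 260 bp (120 to 880) against 180 bp in replicate 2. Of the members, 36.5% and 30.6% were wider than 300 bp, against 0.980% and 0.474% of the comparison peaks. Width bears directly on how many footprints a peak can hold, so this describes the rule and supports nothing. The stretch in which the authors listed a false discovery rate for each base was also longer around members, with a median of 1121 bp against 728 bp and 1220 bp against 689 bp.

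Footprints were more numerous per length in members and narrower, and covered no larger share of the peak. There were 2.50 footprints per 100 bp against 1.88 in the comparison peaks of replicate 1, and 2.69 against 2.00 in replicate 2. The median footprint was 12 bp against 18 bp and 18 bp against 26 bp. Footprints covered a median of 33.2% of a member's bases against 35.6% of a comparison peak's, and 46.9% against 50%. The rule chose members on footprint number, so these values describe the choice and support nothing.

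Centres of neighbouring footprints lay a median of 37 bp apart in members (10th to 90th percentile 14.5 to 67.0 bp), against 51.0 bp in the comparison peaks of replicate 1. In replicate 2 the values were 38 bp (18 to 62 bp) and 53.5 bp. The gaps between footprints had medians of 23 against 29 bp and 19 against 25 bp. In members the spacings formed a broad hump: 8.86% to 9.29% of pairs fell in each 5 bp class from 10 to 35 bp in replicate 1, and in replicate 2 the fullest class, from 30 to 35 bp, held 11.3%. The comparison peaks had most pairs further apart, with 11.3% in the class from 60 to 65 bp in replicate 1 and 14.1% in replicate 2, where members had 5.13% and 5.196%. Within a member the spacing was uneven, with a median coefficient of variation of 0.491 and 0.397. From the first footprint to the last, members spanned a median of 241 and 254.5 bp.

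**Figure D2:**
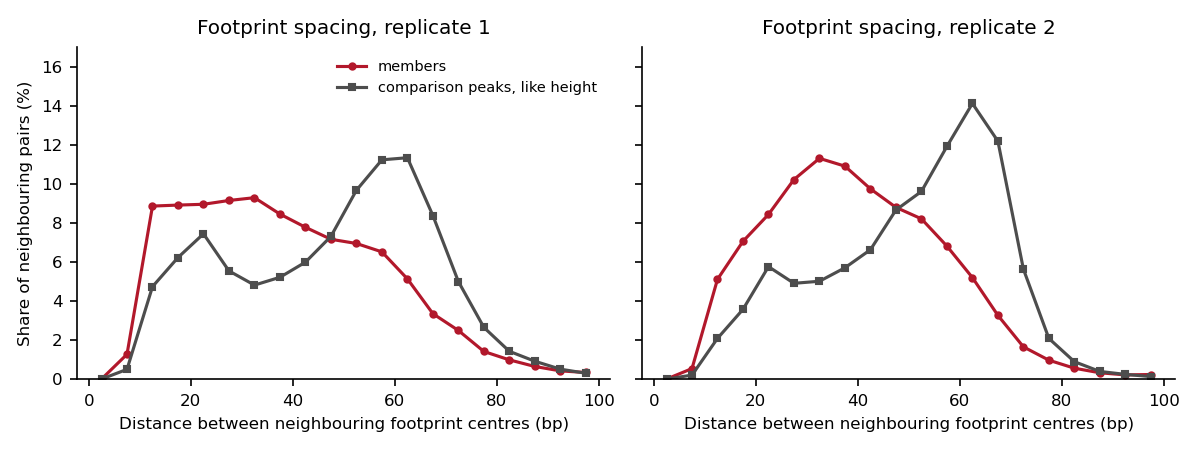
Share of neighbouring footprint pairs (%) by distance between their centres in classes of 5 bp, for members (red) and comparison peaks weighted to the same heights (grey), 1 panel per replicate. Members are broad with a median of 37 and 38 bp, while the comparison peaks are highest from 60 to 65 bp with 11.3% and 14.1% of pairs.

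Most member footprints overlapped a footprint of the other animal by 1 bp or more, which is called recurrence here. Of 11304 footprints of replicate 1 in members, 88.2% overlapped a footprint of replicate 2 (exact 95% binomial interval 87.6 to 88.8), less than the 93.1% in comparison peaks of like height and more than the 77.0% in all peaks. Of 11739 footprints of replicate 2 in members, 74.96% (74.2 to 75.7) overlapped one of replicate 1, against 75.9% and 35.0%. Recurrence followed footprint width. Members had more narrow footprints: 35.0% of theirs in replicate 1 were under 10 bp, against 21.2% in comparison peaks, and 7.98% were 25 bp or wider, against 28.6%. Among footprints under 10 bp 74.4% recurred in members and 75.9% in comparison peaks, and from 20 to 25 bp 99.9% and 99.8% did, so at equal width the replicate 1 shares were close. In replicate 2 the shares in members were above those in comparison peaks in each of the 5 width classes. They ran from 40.9% against 21.8% under 10 bp to 96.3% against 94.2% at 25 bp or wider. Both groups were also chosen on the footprint number of the other library, with more in members and fewer in comparison peaks. The differences in recurrence between the groups therefore cannot be told from the choice, and support nothing. A footprint overlaps one of the other library more often where more bases are covered, and footprints of the other library covered a median of 46.1% of members against 49.4% of comparison peaks in replicate 1, and 32.5% against 33.3% in replicate 2.

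Members lay mostly at promoters, defined by a midpoint within 1 kb of a TSS of GENCODE M21. In replicate 1, 1367 of the 1603 did, or 85.3%, against 66.6% of the comparison peaks and 26.1% of all peaks, a difference of 18.7 percentage points (95% interval 16.8 to 20.5). In replicate 2 the shares were 85.3% and 55.7%, a difference of 29.5 points (27.7 to 31.4). The other members were 110 intergenic, 100 intronic and 26 exonic peaks in replicate 1. Introns held 6.24% of members against 16.1% of comparison peaks in replicate 1, and 6.498% against 22.5% in replicate 2.

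The gap was larger among low peaks than among high ones. In the lowest class of height, from 0.650 to 3.36 in replicate 1, 53.4% of members and 17.3% of comparison peaks were promoters. It was widest in the next class of replicate 1, with 72.5% against 32.7%, and in the third class of replicate 2, with 80.6% against 29.9%. In the highest class, from 20.6 to 35.1, the shares were 95.7% and 92.3% in replicate 1. The lowest and highest classes of replicate 2 ran from 61.7% against 17.6% to 96.3% against 88.6%. High peaks were mostly promoters with or without many footprints. When the comparison peaks were weighted on width as well as height, the difference was 9.14 points in replicate 1 (2.99 to 15.3) and 17.97 points in replicate 2 (12.7 to 23.3), where 7.18% of members had no comparison peak in their class and were left out.

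**Figure D3:**
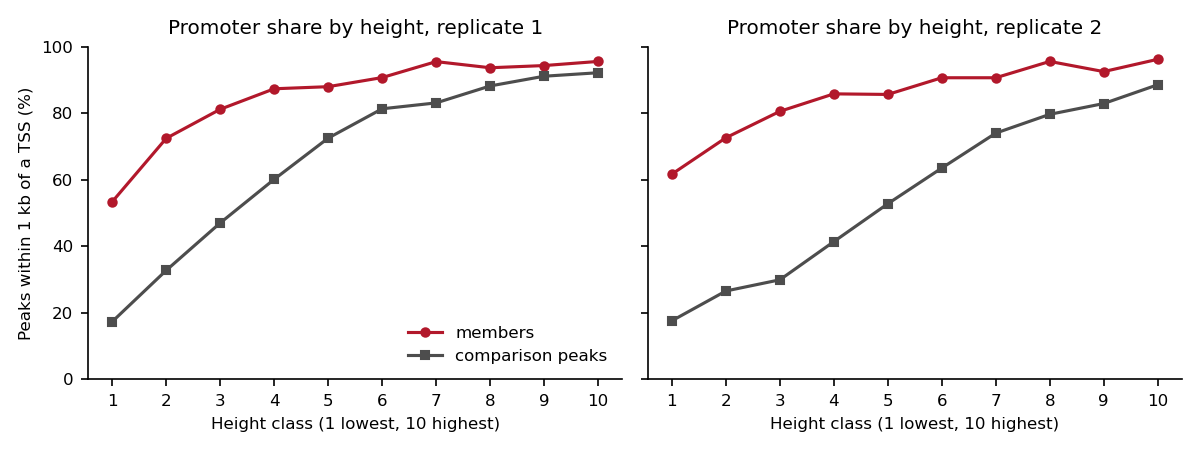
Share of peaks within 1 kb of a TSS (%) in 10 classes of peak height for members (red) and comparison peaks (grey), 1 panel per replicate. Members are above comparison peaks in all 10 classes of both libraries, by 53.4% against 17.3% in the lowest class of replicate 1 and 95.7% against 92.3% in the highest.

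At promoters, members reached further on both sides of the TSS than comparison promoters of like height. Their median widths were 280 against 180 bp and 260 against 180 bp. Width bears on this reach and on whether a TSS lies inside the peak, so both describe the rule and support nothing. The midpoints of promoter members lay a median of 80 and 86 bp from the nearest TSS, against 53 and 63 bp. The nearest TSS lay inside the peak for 77.6% of promoter members against 70.3% of comparison promoters (difference 7.30 points, 4.83 to 9.76) and for 71.3% against 63.0% in replicate 2 (8.22 points, 5.60 to 10.8). The footprint centres lay upstream of the TSS in 68.0% and 68.2% of cases, close to the 65.8% and 65.8% of comparison promoters, but their median position was 60.5 and 65.5 bp upstream against 39 and 43 bp. From 200 to 175 bp upstream, the peak covered 48.6% of promoter members of replicate 1, against 14.3% of comparison promoters. The TSS itself lay in a footprint in 26.6% and 30.0% of promoter members and in 25.5% and 30.4% of comparison promoters, and the intervals of both differences included 0 (-1.52 to 3.70 and -3.00 to 2.32 points). TSSs on both strands, the mark of a divergent promoter, were within 1 kb of 27.1% of promoter members in each library, against 23.8% (difference 3.30 points, 0.693 to 5.92) and 22.5% (4.60 points, 2.04 to 7.16). The nearest TSS belonged to a protein-coding gene for 1261 of the 1367 promoter members.

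The sequence of members was rich in CpG. The ratio of observed to expected CpG in the central 150 bp, which the loss of methylated CpG keeps low over most of the mouse genome, had a median of 0.861 in members, 0.774 in comparison peaks and 0.293 in all peaks of replicate 1. In replicate 2 these were 0.836, 0.624 and 0.275. Among promoters alone the medians were closer, 0.887 against 0.861 and 0.865 against 0.813. Away from promoters the gap was larger, 0.532 against 0.320 for the 236 distal members of replicate 1 and 0.465 against 0.278 for the 238 of replicate 2. Members almost never lay in repeats: 4 of 1603 and 3 of 1616 had over 50% of their bases in them, or 0.250% and 0.186%, against 0.721% and 1.27% of comparison peaks.

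Of 25 short consensus sequences searched on both strands in the central 150 bp, the GC box GGGCGG, a site of SP and KLF factors, set members apart most. It was found in 65.5% of members, 49.3% of comparison peaks and 16.9% of all peaks of replicate 1, a difference of 16.2 points (13.7 to 18.7). In replicate 2 the shares were 64.0%, 38.9% and 14.0%, a difference of 25.0 points (22.5 to 27.5). The difference was there among promoters, with 70.2% against 62.3% and 68.9% against 56.0%, and away from them, with 38.1% against 17.3% and 35.7% against 12.6%. Over whole peaks, members held a mean of 2.47 and 2.24 GC boxes against 1.03 and 0.736, but members were wider and these means are not per length. With classes of width as well as height, the difference in the central 150 bp was 9.89 points in replicate 1 (3.17 to 16.6). In replicate 2 it was 24.3 points (18.4 to 30.3), with 7.18% of members left out. A match says only that these letters are there, and the members' GC content, a median of 68.0% against 64.0% and 66.7% against 59.3%, moved with it, whose part in the result was not tested. The CCAAT box CCAATCA, the site of NFY, was the other motif whose difference had an interval above 0 in both libraries, with 9.54% against 7.13% (2.42 points, 0.845 to 3.99) and 9.47% against 6.97% (2.50 points, 0.964 to 4.04).

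Several motifs were less frequent in the central 150 bp of members than of comparison peaks. The CTCF letters AGNGGGCGC, which share the run GGGCG with the GC box and can overlap it, were in 3.68% of members and 7.85% of comparison peaks (-4.17 points, -5.25 to -3.09) and in 2.91% and 6.92% in replicate 2 (-4.01 points, -4.95 to -3.08). Away from promoters the shares were 3.81% against 10.99% and 2.10% against 9.13%. The central 150 bp are a smaller part of a wide peak: over whole peaks the difference was -1.80 and -1.29 points, and with classes of width as well as height it was -0.671 and -0.890 points with intervals that included 0 (-6.49 to 5.15 and -5.77 to 3.99). The NF1 letters TTGGCA (5.43% against 8.25% and 5.32% against 9.93%), the RUNX letters TGTGGT (3.99% against 6.38% and 4.15% against 7.64%) and the AP-1 letters TGANTCA (1.31% against 2.63% and 1.36% against 3.29%) were lower as well in this central window. Over whole peaks their intervals included 0, with differences of 0.618 and -1.42 points for NF1, 0.090 and -1.14 for RUNX and -0.011 and -0.459 for AP-1. For the ETS letters CCGGAAG the sign also depended on the window: -1.62 points in the central 150 bp and 3.24 points over whole peaks in replicate 1. The NRF1 letters (2.06% against 4.31%) and the cyclic AMP response element TGACGTCA (1.93% against 3.72%) were also lower in the central window of replicate 1. Over its whole peaks both intervals included 0, but among promoters they did not (-1.72 points, -2.96 to -0.482, and -1.65 points, -2.78 to -0.515). The STAT letters TTCCNGGAA were lower in both windows of replicate 1 (-0.589 and -0.545 points). Letters of factors that define kidney tubule cells were rare on both sides: HNF1 (GTTAATNAT) was in 0.250% of members and 0.208% of comparison peaks, and HNF4 (CAAAGTCCA) in 0.187% and 0.347%.

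**Figure D4:**
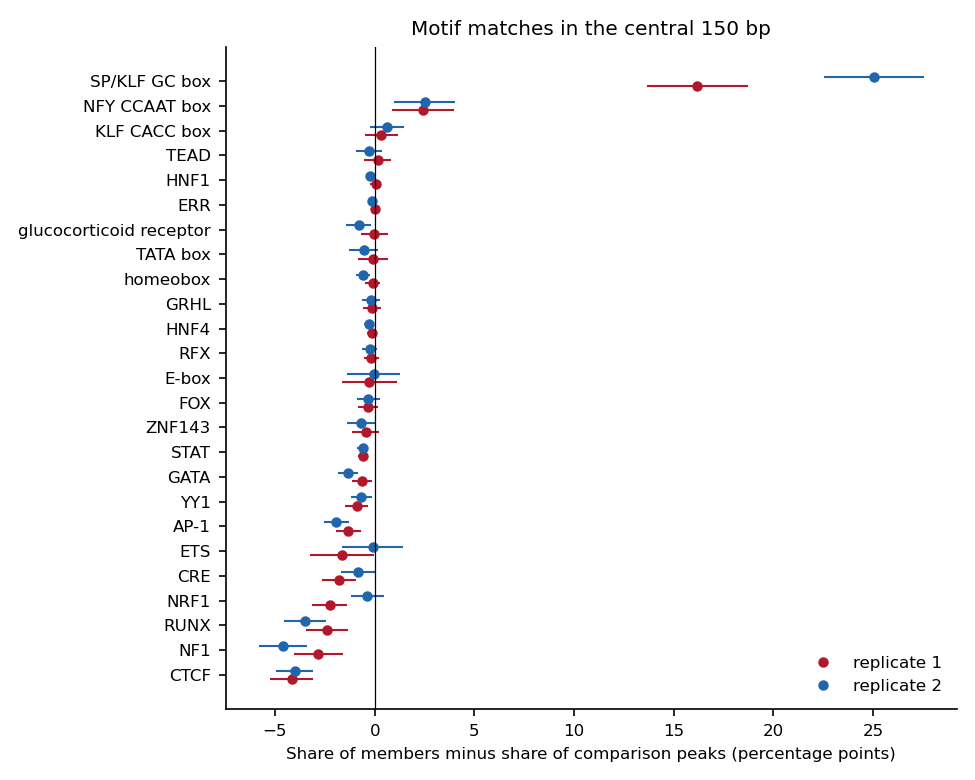
Share of members minus share of comparison peaks with a motif match in the central 150 bp (percentage points, points with 95% intervals of counting error), for 25 motifs in replicate 1 (red) and replicate 2 (blue). The GC box stands at 16.2 and 25.0 points and the CCAAT box at 2.42 and 2.50, while CTCF stands at -4.17 and -4.01.

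Within members, as within comparison peaks, some motifs lay in footprints far more often than others. Footprints covered 31.5% of all member bases in replicate 1 and 44.5% in replicate 2. They covered 58.0% and 78.1% of the bases of 3960 and 3618 GC box matches, against 61.9% and 81.9% in comparison peaks. The NRF1 letters GCGCATGCG, at 92.5% and 91.3% of the bases of 104 and 93 matches, were covered most in replicate 1. In comparison peaks they were covered to 97.1% and 97.7%. These letters can match both strands at 1 site, shifted by 1 bp, which then counts as 2 matches. The cyclic AMP response element TGACGTCA, at 82.6% and 93.2% of 56 and 57 matches, was covered most in replicate 2. In comparison peaks it was covered to 89.9% and 96.0%. GC box matches were by far the most numerous. The CTCF letters were covered to 59.0% and 76.6% in members, against 86.9% and 94.5% in comparison peaks. Several motifs were covered less than all bases. The letters of AP-1 were covered to 18.3% and 23.1% (54 and 57 matches). Those of GATA factors (AGATAA) stood at 11.8% and 12.5% (34 and 36) and of FOX factors (TGTTTAC) at 8.66% and 13.03% (33 and 34). In comparison peaks these were 18.6% and 33.3%, 17.7% and 27.7%, and 14.0% and 22.9%. Others under that share in members included ZNF143 (ACTACAA, 13.3% and 28.8%) and homeobox letters (TAATTA, 14.7% and 7.5%). The HNF1 letters, with 8 matches in each library, were above it at 43.1% and 54.2%.

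Members away from promoters, 236 and 238 of them, were lower peaks. Their median height was 4.97 in replicate 1 and 4.88 in replicate 2, against 11.8 and 10.9 for promoter members, and their median width was 300 and 280 bp. The 10 with the most footprints were 6 intergenic and 4 intronic peaks, going by this order. The first, at chr11:120184761-120185240 and 3.75 kb from 2810410L24Rik, had 11 and 11 footprints at heights of 4.14 and 5.24. The second, at chr4:55651121-55651720 and 46.3 kb from Gm12506, also had 11 and 11, at 4.0 and 4.53. The others were nearest to 4930579D07Rik (9 and 12), 0610009L18Rik (8 and 13), Fstl3 (an activin inhibitor; 10 and 9), Gm22061 (8 and 11), Gm16104 (10 and 9), Zfp503 (a zinc finger protein; 11 and 8), Gm49539 (8 and 10) and Hes1 (a repressor and Notch target; 7 and 11). Of these 10, those at Fstl3 and Hes1 lie 280 and 173 bp from a TSS in the comprehensive GENCODE set, which lists more transcripts. Over all distal members, 14.8% and 14.3% lay within 1 kb of such a TSS, against 8.88% and 7.28% of distal comparison peaks.

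Of 21938 protein-coding genes, 1450 had a member within 500 bp of a TSS, which is 6.61% of all and 10.1% of the 14304 that had a shared peak there. The share depended on the height of the gene's highest promoter peak: it was 0.0693% in the lowest of 10 classes and 21.8% in the highest. A neighbour can share a promoter, and 169 members lay at 2 or more genes. The lists that follow were read against both the 6.61% and the share of all genes whose promoter peaks were of like height.

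Genes of the circadian clock, the feedback loop of transcription factors that times daily gene activity, had members most often, at 8 of 15 or 53.3%, against 16.8% of all genes of like promoter height. Nr1d2 (the nuclear receptor Rev-erb beta, a repressor in the loop) at chr14:18238361-18238700 had 10 and 9 footprints at heights of 20.1 and 16.97. Per1 at chr11:69094761-69095260 had 9 and 10 at 16.9 and 23.6, and Per3 at chr4:151044641-151045000 had 8 and 10 at 21.7 and 21.2. Both encode period proteins, which inhibit the activators of the loop. Arntl (BMAL1, an activator) at chr7:113207081-113207520 had 8 and 8 at 13.8 and 13.5. Not all high clock promoters were members: Tef, a PAR bZIP output factor, had the highest peak without membership, at 29.5 and 23.9, with 4 and 2 footprints, and the cryptochromes Cry2 (17.8 and 19.1) and Cry1 (14.8 and 15.4) had 4 and 6 and 3 and 4. These heights overlap those of the clock members. Of the 8 members, 6 held a GC box and 3 an E-box CACGTG, the letters that the clock activators bind, over the whole peak, where 85.4% and 11.8% of all promoter members did. At 8 or more footprints in both libraries, 4 of the 15 genes had such a member, against 1.10% of all protein-coding genes. The share among genes of like promoter height was not computed at this minimum.

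Other general lists had 2 to 5 genes with a member each, counts too small to read a direction from. Of 24 genes of oxidative phosphorylation 5 had a member, or 20.8% against 14.7%, among them Cycs (cytochrome c) with 8 and 6 footprints, Cox4i1 with 6 and 7, Ndufa4 with 7 and 6 and Cox6c with 6 and 6. Of 25 immediate early and stress genes 5 did, with 16.4% among genes of like height. Hspa8 (a constitutive HSP70 chaperone) at chr9:40800841-40801200 had 9 and 13 footprints, Dusp1 (a MAP kinase phosphatase) 9 and 7, Myc 7 and 9 at heights of only 2.82 and 2.92, and Hspa1b (an inducible HSP70) 6 and 8. Ddit3, whose product CHOP acts in the stress response of the endoplasmic reticulum, reached 29.4 and 42.7 with 4 and 5 footprints. Housekeeping genes (2 of 16, 12.5% against 15.1%), cytosolic ribosomal proteins (2 of 25, 8.0% against 14.8%) and the transcription and chromatin machinery (2 of 25, 8.0% against 15.7%) stood below those shares. With 5 or more footprints in both libraries as the rule, they had 7, 7 and 9 genes, or 43.75%, 28.0% and 36.0% against 16.8% of all genes. The share among genes of like promoter height was not computed at this minimum, so these values cannot be set beside those above. Eef1a1 (a translation elongation factor) had 9 and 12 footprints, while Eef2, another elongation factor, had 6 and 5 at heights of 28.1 and 26.5. Rps18 had 8 and 7, and Rpl23 had 3 and 3 at 22.2 and 31.6. Taf1, a subunit of TFIID, had 8 and 7, and Crebbp (CBP, a histone acetyltransferase) 6 and 6.

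Genes of kidney cells had low promoter peaks, among the genes that had a shared peak there. In replicate 1 the median of the highest such peak was 2.78 for proximal tubule genes (26 of 28 had one). It was 4.16 for kidney transcription factors (25 of 26), against 7.49 for protein-coding genes (14304 of 21938). Kidney transcription factors had 4 of 26, or 15.4%, against 7.47% of genes of like height. Pax2, a factor of kidney development, held 8 and 13 footprints in a wide peak at chr19:44756401-44756960 of heights 3.68 and 2.93. Esrra (the estrogen-related receptor alpha) at chr19:6921801-6922060 had 6 and 8 at 26.5 and 35.6, Nr3c2 (the mineralocorticoid receptor) 7 and 7, and Rxra (the retinoid X receptor alpha) 7 and 7. Ppara, a regulator of fatty acid oxidation, had 4 and 4 at 16.9 and 13.5. Proximal tubule genes had 2 of 28, or 7.14%, against 4.23%: Slc4a4 (a sodium bicarbonate cotransporter) with 7 and 8 footprints at 2.08 and 0.889, and Miox (inositol oxygenase) with 6 and 7 at 4.39 and 2.73. Lrp2 (megalin) had 3 and 5 footprints at 6.93 and 4.53. Endothelial genes had 2 of 15, or 13.3%, against 4.54% (Ehd3, 6 and 8, and Tie1, 6 and 7). The counts of these kidney lists were also too small to read a direction from.

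No gene had a member in the lists of the loop of Henle and distal convoluted tubule (0 of 20), collecting duct (0 of 21), stromal and smooth muscle (0 of 14) or immune cells (0 of 14). The same held for the lists of other organs: neuron (0 of 17), heart and skeletal muscle (0 of 18), hepatocyte (0 of 18) and male germ cell (0 of 11). In lists of this size, and with 6.61% of all genes called, a count of 0 says little by itself. Among genes of like promoter height the shares ran from 0.610% (immune) to 7.06% (male germ cell). They were 2.65% for the collecting duct and 5.37% for the loop of Henle and distal convoluted tubule. Some of these genes had high promoter peaks with many footprints in 1 library: Cnnm2 had 5 and 8 at 24.1 and 30.7, Wnk1 5 and 8 at 17.6 and 11.3, and Dazl 6 and 4 at 8.26 and 6.07.

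**Figure D5:**
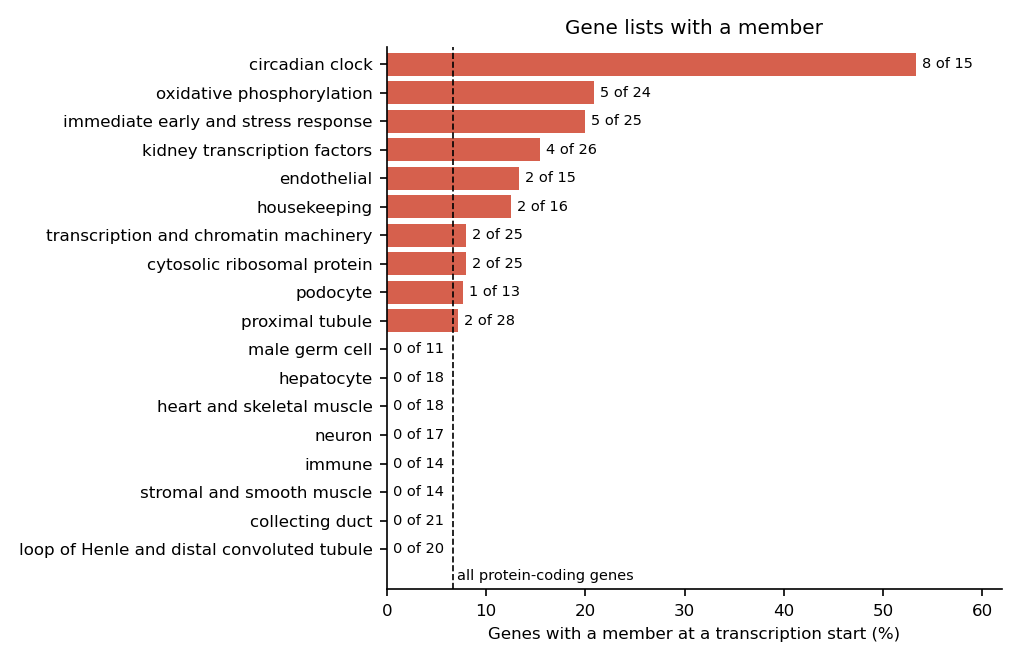
Share of genes (%) with a member within 500 bp of a TSS in 18 gene lists (bars, with counts), and in all protein-coding genes (dashed line, 6.61%). The circadian clock stands highest at 8 of 15, and 8 lists have no such gene.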

How the data were processed

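DNase-seq peaks and footprints of 2 kidney libraries (1 group, n = 2) were used. The authors deposited, per library, 2 peak lists whose signal column holds the height of each peak, a footprint list, and false discovery rates (q-values) per base, listed below 0.05. Coordinates are on mm10, per the labels. The aligner and the callers are not stated in the sources used here, nor is how CAST/EiJ alleles were aligned to the C57BL/6J reference. Low heights rise in steps of 0.00855 and 0.00497, and read numbers are unknown. The longer peak list was used; its peaks can overlap each other, as 82 and 71 members do.

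Overlaps needed 1 bp. Comparison peaks (60838 and 78821 within the members' heights) were weighted over 10 height classes, and intervals of differences in shares came from binomial variances within classes. Weighting and intervals were tested on simulated data. Gene models were GENCODE M21 basic; promoter sequence and soft-masked repeats came from GRCm38.p6. Like promoter height means 10 classes of a gene's highest shared promoter peak. Python 3.11.15, numpy 2.4.6, pandas 2.3.3, scipy 1.17.1 and pysam 0.24.0 were used.

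The text names the 10 members with the most footprints over both libraries, the 10 such distal ones, and per list up to 4 genes with a member and up to 3 with the highest promoter peak that is none, some lists with fewer; a few of these genes are not reported here. The members, lists and motifs were chosen with earlier results of these data known, and no list was tested. The alternatives were other footprint minimums, the stricter peak list, footprint midpoints, reciprocal overlap, other comparison peaks, classes and promoter definitions, and leaving out each replicate. The 50 height classes and the omission of overlapping peaks were chosen after seeing the data.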

Additional observations from a re-analysis of the deposited data

How the results depend on the processing

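No paired analysis was possible because the series holds 1 group. The number of members was 4524 with 5 or more footprints and 231 with 8 or more, and genes with a member at a TSS numbered 3693 and 242. Without a replicate the rule asks for 6 footprints in the other library alone: this gave 3360 to 7582 members, 2716 to 4159 genes, promoter differences of 12.9 to 20.8 points, width differences of 60 to 80 bp, spacings of 35 to 37 bp, recurrence of 48.4% to 85.9% and CpG differences of 0.0685 to 0.270. The promoter share difference kept its sign in every alternative: it was 29.7 points with classes of replicate 2 height, 62.3 points with no weighting by height, and 9.14 points with classes of height and width. The CpG difference was 0.23 with classes of replicate 2 height and 0.577 with no weighting. The width difference was 60 bp with 5 or more footprints, 220 bp with 8 or more, 120 bp with footprint midpoints inside the peak and 120 bp against comparison peaks with 1 to 2 footprints. The spacing was 38 bp with 8 or more footprints and 36 bp without overlapping peaks. The GC box difference was 27.9 points over the whole peak and 9.89 points with classes of height and width. The cause of these shifts was not tested, except that more or fewer peaks pass a lower or higher minimum. The other 51 of 77 recomputed values stayed within the spread between the libraries (1 standard deviation of 2 values) or, for counts, within 1.5 times. That spread is wide: for the CpG difference it was 0.0881, beside a replicate 1 value of 0.0874. A CpG difference of 0.0368 with 8 or more footprints thus counted as within it, so the 51 say little about stability. Of the counts of list genes with a member, 84 stayed within 1.5 times and 42 did not. With 2 animals and unknown read depth, footprints missed for want of cuts cannot be told from footprints that are absent.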
